A study of Mus musculus with 6 samples.

Results

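Microglia are the resident macrophages of the brain, and 38 genes that mark them or their response to amyloid plaques were taken from the gene tables by name, out of 15616 distinct names on 15639 rows. The genes were sorted by role into 13 homeostatic members, which mark the surveying cell of the healthy brain, 12 plaque-associated members, which microglia around amyloid deposits are known to express, and 13 members shared by macrophages and related blood cells. Of the 38, 35 had a row and 31 reached at least 1 FPKM (fragments scaled by transcript length and by library total) in at least 3 libraries, the level required for testing. Itgax, Clec7a and Ptprc had no row of that name. Every row listed reached at least 0.529 FPKM in some library. Here and below, a gene without a row may therefore be low or listed under another name, and was not shown to be absent. Cst7, Cd52, Spi1 and Cd33 had a row but lay under that level. Itgam stood on 2 rows, of which 1 was tested.

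The libraries came from total RNA of whole hippocampus, 3 labelled WT and 3 labelled APP/PS1, all from mice aged 6 months. APP/PS1 mice carry the human disease transgenes APP695swe and PS1-dE9. A widely used line of this kind drives them from the mouse prion protein promoter, but the labels name neither the line nor the promoter. They do not give sex, litter or batch, nor do they say that each library is a separate animal, so p-values measure the spread between libraries, which may be technical. In RNA of a whole tissue, fewer microglia and less RNA per microglial cell cannot be told apart.

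Microglia depend on signals from neighbouring cells: CSF1R receives their survival signal, CX3CR1 and the ADP receptor P2RY12 read cues from neurons, and TGF-beta receptors keep the homeostatic state. TREM2 is a lipid-sensing receptor that signals through the adaptor TYROBP. In mice with plaques homeostatic genes are known to fall and genes such as Cst7, Itgax, Clec7a and Lyz2 to rise. This pair takes part in that switch, but not every step of it depends on the pair. PU.1, the product of Spi1, is the transcription factor that commits cells to this lineage.

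Start-site sequence was read for the lineage factor's letters because PU.1, encoded by a member, is known to act at many of these genes. RefSeq stretches of GRCm38.p6, 250 bases before each start, were matched for 29 of the 38 members. GAGGAAG, the letters that ETS factors such as PU.1 bind, was found on either strand in 11 of these 29, beside 12% of 27025 genes. The longer ETS-IRF composite element, at which PU.1 can bind with an IRF partner, was found in 1 of 29, Clec7a, beside 2.68% of genes. The 11 were P2ry13, Fcrls, Tgfbr1, Trem2, Axl, Cd63, Itgam, Laptm5, Fcgr3, Inpp5d and Cd33. A match is a description of letters and not of binding. Below are 2 such stretches, each wholly before the annotated gene and read 5′ to 3′ on the gene's strand, with the match in capitals. They are shown because Trem2 is a receptor of the plaque response and P2ry13 is a homeostatic member described further on. Trem2 is from chr17:48346151-48346400 on the plus strand and P2ry13 from chr3:59210883-59211132 on the minus strand.
Trem2: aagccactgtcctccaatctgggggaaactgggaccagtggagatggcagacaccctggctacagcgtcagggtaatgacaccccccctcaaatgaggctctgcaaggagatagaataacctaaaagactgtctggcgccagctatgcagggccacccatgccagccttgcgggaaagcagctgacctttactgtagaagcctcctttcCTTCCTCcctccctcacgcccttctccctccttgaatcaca
P2ry13: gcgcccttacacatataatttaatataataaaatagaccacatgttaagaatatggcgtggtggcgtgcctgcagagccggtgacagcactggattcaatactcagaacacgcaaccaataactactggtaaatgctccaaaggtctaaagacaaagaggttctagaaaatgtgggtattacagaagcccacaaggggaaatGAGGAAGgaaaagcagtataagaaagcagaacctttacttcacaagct

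The match lies 34 bases before the start of Trem2, as CTTCCTC on the strand shown, and 41 bases before that of P2ry13.

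A pair of genes checked the labels before any comparison. Prnp, which encodes the prion protein, measured 188, 181 and 457 FPKM for WT replicates 1 to 3 and 472, 199 and 464 FPKM for APP/PS1 replicates 1 to 3. App, the amyloid precursor gene, split the libraries alike, at 69.8, 68.5 and 146 FPKM against 153, 71.0 and 166 FPKM. WT replicate 3 and APP/PS1 replicate 2 thus went against their labels by both genes. Whether the labels of these 2 libraries were exchanged cannot be settled from the tables, so each direction by label holds for the labels as given. Members are given below by label and then by Prnp level, above or below 300 FPKM, where the lowest library above stood at 457 FPKM and the highest below at 199 FPKM. Libraries summed to between 182355 and 185217 FPKM, and the read depth behind these values is unknown. Marker lists of neurons, astrocytes, oligodendrocytes, endothelium, choroid plexus and fibroblasts each had 8 of 8 genes listed. Of 8 lymphocyte markers 0 had a row, of 8 monocyte and neutrophil markers 2 had one (Ccr2 and Ly6c2 had none), and of 8 markers of macrophages at the brain's borders 4 had one (Cd163, Lyve1, Pf4 and Ms4a7 had none).

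Of all members, Cd9 and Csf1r had the highest levels per transcript length. Csf1r, the survival receptor, had a mean of 13.8 FPKM over the 6 libraries and Cd9, a tetraspanin that oligodendrocytes and astrocytes also express, 14.0 FPKM, and the ranges of these 2 overlapped. Next came Mertk, a receptor for engulfing dead cells, at 10.9 FPKM, the tetraspanin Cd63 at 9.60 FPKM, Axl, a relative of Mertk, at 8.98 FPKM, and Tyrobp at 8.52 FPKM. Mertk, Axl and Cd63 are also made by other brain cells, and they overlapped both by label and by Prnp level, with ranges over the 6 libraries of 9.49 to 11.7, 8.17 to 9.81 and 8.91 to 10.4 FPKM. Of the genes most specific to microglia, P2ry12 averaged 8.01 FPKM, Tmem119, a surface protein used to tell microglia from blood macrophages, 5.43 FPKM, Gpr34, a lysophosphatidylserine receptor, 2.82 FPKM, and Siglech, a sialic acid-binding lectin, 1.13 FPKM. Each of these 4 stood clear of the next in every library. Trem2 averaged 1.16 FPKM, far below its adaptor Tyrobp, which other receptors also use. Spi1 was listed between 0.555 and 0.891 FPKM and Cd33, an inhibitory lectin, between 0.805 and 1.18 FPKM. Cd52, a small surface glycoprotein, ranged from 0.291 to 0.786 FPKM.

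**Figure D1:**
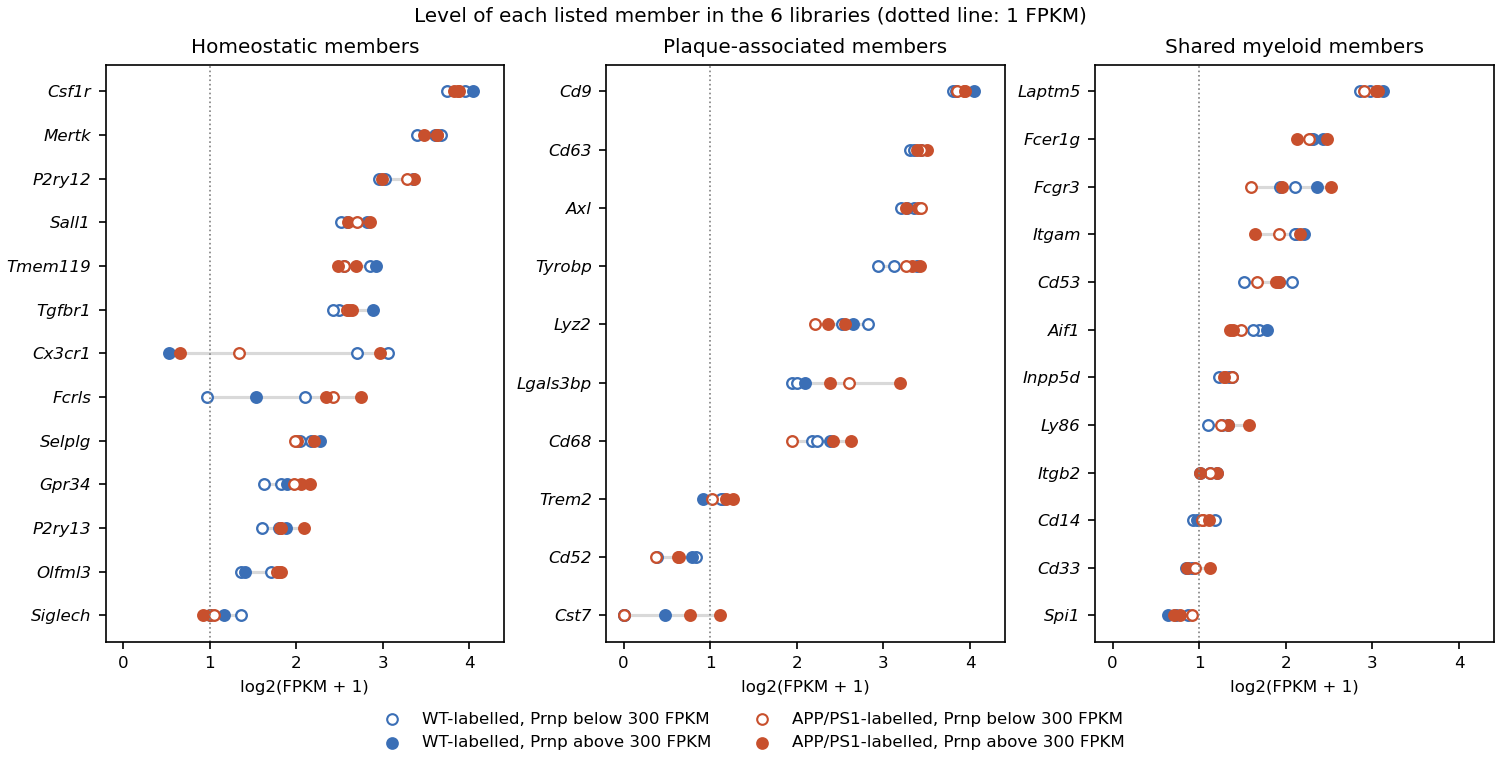
Level of the 35 listed members (first row of Itgam) in each of 6 libraries as log2(FPKM + 1), WT-labelled in blue and APP/PS1-labelled in red, filled where Prnp was above 300 FPKM. Grey lines span the lowest to the highest library, and those of Cx3cr1 and Fcrls are the longest among tested members.

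By label, no member passed. At an adjusted p under 0.05 by limma, 0 of 31 tested members were called, where 3 of 13700 genes (0.0219%) were. With a library left out that count over all genes ran from 2 to 30, the highest without APP/PS1 replicate 2. At an unadjusted p under 0.05, 6 members stood out (19.4%) beside 6.69% of all genes tested, 4 of them higher and 2 lower in the APP/PS1-labelled libraries. The lowest adjusted p among members was 0.609. The median log2 fold change, on the log2(FPKM + 1) scale that understates the change of low genes, was 0.02 for homeostatic, 0.08 for plaque-associated and -0.005 for shared myeloid members, beside -0.0009 for all genes tested. The spread of these member medians between replicates (SD) was 0.096, 0.068 and 0.087 in the same order, and they are descriptions with no test. Positive values were found for 8 of 13 homeostatic, 7 of 8 plaque-associated and 5 of 10 shared members, where 49.6% of all genes were positive. Without WT replicate 3 the homeostatic median was 0.15, and in the 4 libraries left when both libraries that went against their labels were dropped it was 0.17. In those 4 libraries 27 genes (0.197%) and 0 members passed, and 5 members had an unadjusted p under 0.05, beside 9.18% of all genes.

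**Figure D2:**
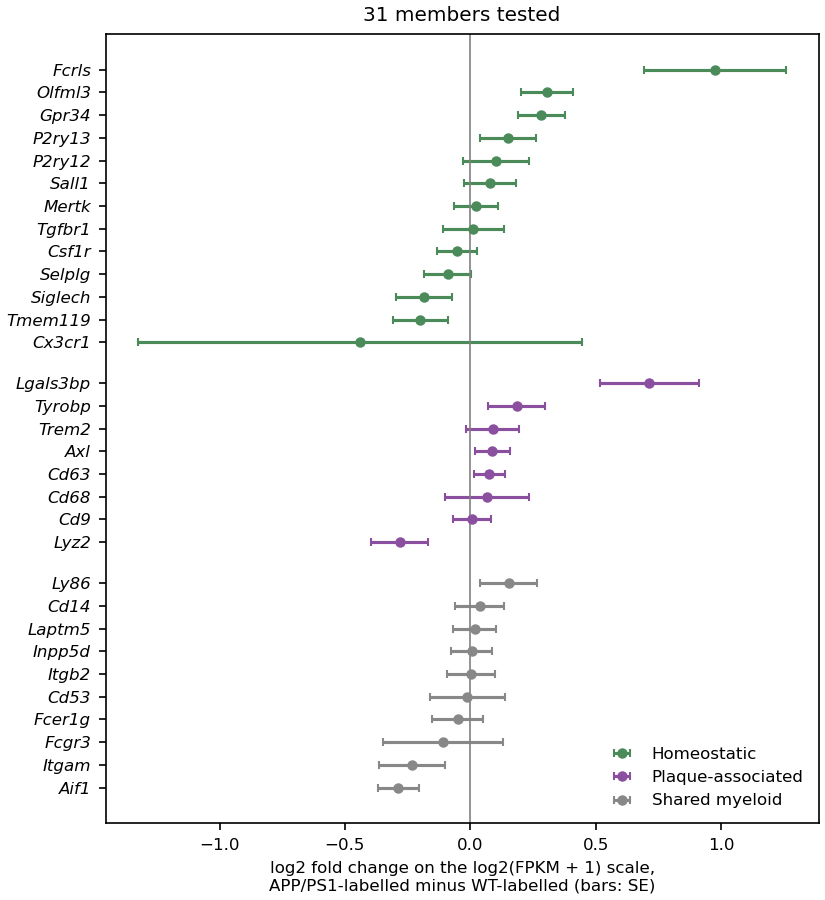
Log2 fold change on the log2(FPKM + 1) scale of the 31 tested members, APP/PS1-labelled minus WT-labelled, with the SE from limma as bars and 3 libraries per label. Fcrls, at 0.98, and Lgals3bp, at 0.71, lie farthest to the right, and the bar of Cx3cr1 is the widest.

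For 4 members every APP/PS1-labelled library lay above every WT-labelled one (12.9% of those tested, beside 5.38% of all genes), and for 1 every one lay below (3.23%, beside 6.51%). The share of FPKM on mitochondrial genes also separated by label, at 9.30%, 8.87% and 9.31% against 10.3%, 9.70% and 11.3%, and its part in the members' values was not tested. Lgals3bp, a secreted glycoprotein that binds galectins and is listed among plaque-associated genes, stood at 2.85, 3.01 and 3.27 FPKM under the WT label and at 8.16, 5.09 and 4.20 FPKM under the APP/PS1 label. The WT-labelled libraries were close together, while the APP/PS1-labelled ones were spread widely, with replicate 1 the highest. Its log2 fold change was 0.71 ± 0.20 (SE; limma, adjusted p = 0.611, range over alternatives 0.454 to 0.899).

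The other 3 higher members were homeostatic. Fcrls, an Fc receptor-like protein made in the mouse brain almost only by microglia, was at 3.28, 0.954 and 1.90 FPKM under the WT label and at 5.74, 4.36 and 4.10 FPKM under the APP/PS1 label. Its log2 fold change was 0.98 ± 0.28 (SE; limma, adjusted p = 0.639), and the 3 WT-labelled values differed among themselves more than the APP/PS1-labelled ones did. Olfml3, a secreted matrix protein of microglia, was listed at 2.27, 1.58 and 1.66 against 2.53, 2.43 and 2.49 FPKM, with WT replicate 1 just under the APP/PS1-labelled libraries. Gpr34 was listed at 2.54, 2.10 and 2.71 against 3.17, 2.93 and 3.47 FPKM. The log2 fold changes of these last 2 were 0.30 and 0.28 (limma, adjusted p = 0.669 and adjusted p = 0.664).

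Aif1, which encodes the cytoskeletal protein IBA1 that is widely stained to show microglia, was the member listed lower throughout, at 2.22, 2.07 and 2.43 FPKM under the WT label and 1.56, 1.80 and 1.61 FPKM under the APP/PS1 label. Its log2 fold change was -0.29 ± 0.08 (SE; limma, adjusted p = 0.609). Lyz2, the lysozyme gene of macrophages, also had a negative log2 fold change, -0.28 (limma, adjusted p = 0.740), but its libraries overlapped, at 6.05, 4.72 and 5.26 against 4.15, 3.62 and 4.90 FPKM. Its near-identical copy Lyz1 could share reads with it, so this value is uncertain. Markers of border macrophages, which express Aif1 and Lyz2 too, summed over 4 listed genes to between 3.70 and 4.58 FPKM under the WT label and between 2.81 and 3.48 FPKM under the APP/PS1 label, without overlap. The 2 listed monocyte and neutrophil markers summed to between 0.456 and 0.915 against between 1.17 and 3.22 FPKM, which are low values. Of the 4 listed border macrophage markers 2 separated alone, and of these 2 markers 1 did. APP/PS1 replicate 3, at 3.22 FPKM, also had the highest sum of red cell markers, 708 FPKM, where the other libraries lay between 333.5 and 481.2 FPKM. The part of any of these cells in the members' values was not tested.

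**Figure D3:**
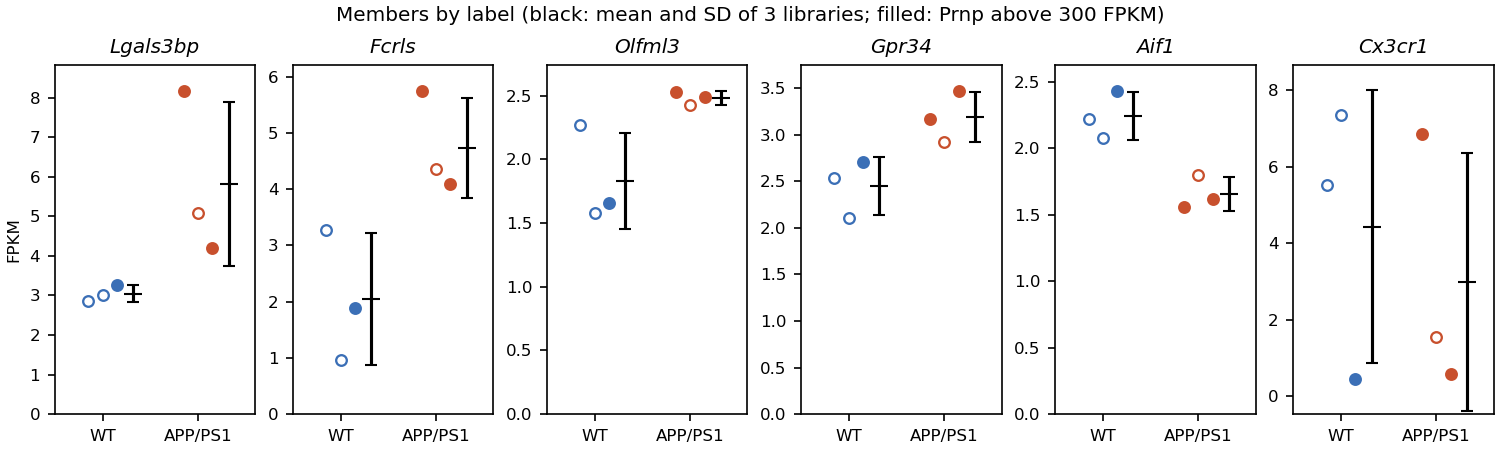
FPKM by label of 6 members, 1 point per library with the mean and SD of 3 libraries in black, filled where Prnp was above 300 FPKM. Lgals3bp, Fcrls, Olfml3 and Gpr34 are higher and Aif1 is lower in all 3 APP/PS1-labelled libraries, whereas Cx3cr1 runs from 0.442 to 7.34 FPKM without regard to label.

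Leaving out a library could only keep or raise these counts, since genes without overlap in all 6 libraries cannot overlap in fewer. Without WT replicate 3 the higher members numbered 10 (beside 14.8% of all genes) and without APP/PS1 replicate 2 they numbered 7 (10.1%). The lower members numbered 5 without WT replicate 1 (12.1%) and 5 without APP/PS1 replicate 3 (11.4%), and 2 without WT replicate 2 (11.0%) or without APP/PS1 replicate 2 (12.8%). In the 4 libraries without WT replicate 3 and APP/PS1 replicate 2, 14 of 31 members were higher throughout (45.2%, beside 20.9% of all genes) and 2 were lower (6.45%, beside 20.6%). Among plaque-associated members 6 of 8 were higher there, among homeostatic 6 of 13 and among shared myeloid 2 of 10. These 4 libraries were chosen by Prnp and App after the values were known. Label and Prnp level divide them alike, so a gene that separates by either in all 6 libraries must separate here too. The 14 thus include the 4 members higher by label and the 7 given below by Prnp level, and are no separate result.

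The TREM2 receptor complex did not separate by label. Trem2 stood at 1.21, 1.19 and 0.891 FPKM under the WT label and at 1.40, 1.03 and 1.26 FPKM under the APP/PS1 label, a log2 fold change of 0.09 ± 0.11 (SE; limma, adjusted p = 0.928). Tyrobp stood at 7.71, 6.65 and 9.46 against 9.04, 8.56 and 9.69 FPKM, a log2 fold change of 0.19 ± 0.11 (SE; limma, adjusted p = 0.840). The highest WT-labelled library for Tyrobp was replicate 3 and the lowest APP/PS1-labelled one was replicate 2. Fcer1g, the signalling chain of Fc receptors and a relative of Tyrobp, ranged from 3.88 to 4.39 FPKM under the WT label and from 3.38 to 4.56 FPKM under the APP/PS1 label. Fcgr3, an activating receptor for antibodies that signals through that chain, ranged from 2.82 to 4.13 against 2.02 to 4.76 FPKM, with APP/PS1 replicates 2 and 3 at the extremes. Inpp5d, the phosphatase SHIP1 that restrains these receptors, stayed between 1.35 and 1.61 FPKM over all 6 libraries.

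Among the homeostatic members, P2ry12 had 7.12, 6.78 and 9.20 FPKM under the WT label and 9.27, 8.74 and 6.96 FPKM under the APP/PS1 label, with overlap. Tmem119 had 4.86, 6.23 and 6.56 against 5.47, 4.86 and 4.58 FPKM. Csf1r varied by 1.25-fold over the 6 libraries. Sall1, a transcription factor that maintains microglial identity, ranged from 4.72 to 6.25 FPKM, Selplg, a ligand of selectins, from 2.96 to 3.83 FPKM and Siglech from 0.904 to 1.57 FPKM. None of these 6 separated by label or by Prnp level.

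Cx3cr1, the receptor of the neuronal chemokine fractalkine, varied most of the 31 tested members. It was listed at 5.51, 7.34 and 0.442 FPKM for WT replicates 1 to 3 and at 6.84, 1.54 and 0.575 FPKM for APP/PS1 replicates 1 to 3. The highest was 16.6-fold above the lowest, a ratio exceeded by 0.241% of genes tested, and the low libraries were WT replicate 3 and APP/PS1 replicates 2 and 3, a division that neither the labels nor Prnp follow. In those 3 libraries P2ry12, which marks the same cells, was at 9.20, 8.74 and 6.96 FPKM and Csf1r at 15.4, 13.6 and 13.7 FPKM. The log2 fold change of Cx3cr1 by label was -0.44 ± 0.89 (SE; limma, adjusted p = 0.963), and it was 0.04 without WT replicate 2 and 0.06 without APP/PS1 replicate 3. In the RefSeq table of GRCm38.p6 the long non-coding gene Gm33858 overlaps Cx3cr1. Whether the mm9 annotation behind these values held that gene is unknown. If it did, reads could be divided between them, which was not tested, so the value is uncertain. Fcrls, with a 6.02-fold range, was the next most variable of the tested members (exceeded by 0.569% of genes).

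The integrins that macrophages use to adhere were low. Itgam, the alpha chain of the complement receptor known as CD11b, was listed at 3.33, 3.30 and 3.63 against 2.11, 2.80 and 3.49 FPKM on the tested row. On the other row of that name it was listed at 0, 0.0181 and 0 FPKM under the WT label and at 0.648, 0.647 and 0.292 FPKM under the APP/PS1 label. With both rows added, values were 3.33, 3.32 and 3.63 against 2.76, 3.44 and 3.78 FPKM, and the groups overlapped. The tables do not say what separates the 2 rows, so the value of either alone is uncertain. Itgb2, the shared beta chain, lay between 1.01 and 1.30 FPKM. Cd14, the co-receptor for bacterial lipopolysaccharide, lay between 0.895 and 1.27 FPKM and Cd53, a tetraspanin of white blood cells, between 1.87 and 3.20 FPKM.

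By Prnp level the members leaned one way. In 7 of 31 tested members (22.6%) the 3 libraries with Prnp above 300 FPKM, WT replicate 3 and APP/PS1 replicates 1 and 3, all lay above the other 3, beside 6.83% of all genes tested. In 0 of 31 did they all lie below, beside 5.6% of all genes, a count that was 2 without WT replicate 3 (12.7% of all genes) and 1 without APP/PS1 replicate 1 (10.1%). The highest value fell in one of these 3 libraries for 23 of 31 members (74.2%, beside 53.9% of all genes), and the lowest for 8 of 31 (25.8%, beside 51.8%). This division rests on a measured gene and on values already known, so it is a description with no test, and no mean was taken.

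Tyrobp was listed at 9.46, 9.04 and 9.69 FPKM where Prnp was high and at 7.71, 6.65 and 8.56 FPKM where it was low. Cd68, a glycoprotein of phagocyte lysosomes, was listed at 4.20, 4.32 and 5.18 against 3.51, 3.72 and 2.86 FPKM. APP/PS1 replicate 2, with low Prnp, held the lowest Cd68 value and APP/PS1 replicate 3, with high Prnp, the highest. Cd9 was listed at 15.5, 14.2 and 14.3 against 13.01, 13.3 and 13.4 FPKM, a narrow gap. With these 3, 3 of 8 tested plaque-associated members separated, beside 2 of 13 homeostatic and 2 of 10 shared members. Cst7, a cysteine protease inhibitor that is among the strongest markers of microglia at plaques, lay under the level for testing. It was listed at 0.395, 0.694 and 1.17 FPKM where Prnp was high and at 0 in the other 3 libraries. Every row listed reached at least 0.529 FPKM in some library, which Cst7 did only where Prnp was high. Its values are low, and it is not counted among the members that separated. The remaining plaque-associated members overlapped, Trem2 included, at 0.891, 1.40 and 1.26 against 1.21, 1.19 and 1.03 FPKM.

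Laptm5, a lysosomal membrane protein of blood-derived cells, was listed at 7.69, 7.21 and 7.34 FPKM where Prnp was high and at 6.23, 6.85 and 6.46 FPKM where it was low. Ly86, a partner of a Toll-like receptor homologue, was listed at 1.52, 1.52 and 1.98 against 1.15, 1.40 and 1.38 FPKM. Both belong to the shared members. Of the homeostatic members, P2ry13, an ADP receptor beside P2ry12 in the genome, was listed at 2.68, 3.27 and 2.55 against 2.49, 2.03 and 2.52 FPKM, and Tgfbr1, a TGF-beta receptor chain, at 6.38, 5.27 and 5.08 against 4.66, 4.35 and 5.001 FPKM. P2ry13, Tgfbr1 and Laptm5 are among the 11 of 29 matched members with GAGGAAG before the start, while Tyrobp, Cd68, Cd9 and Ly86 are not. For 9 members no sequence was read, so a gene outside the 11 need not lack the letters. Whether the letters go with the level of Prnp was not tested. For P2ry13 and Tgfbr1 the nearest libraries of the 2 sides almost touched. The count of 7 could only stay or rise with a library left out. It was 12 without APP/PS1 replicate 1 (beside 11.4% of all genes) and 11 without APP/PS1 replicate 2 (14.9%).

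Among markers of other cells, the oligodendrocyte and astrocyte sums divided the same way. The summed level of 8 oligodendrocyte markers, 8 of 8 listed, was between 421.5 and 479.6 FPKM where Prnp was high and between 328.7 and 396.7 FPKM where it was low, and 3 of the 8 separated alone, beside 6.83% of all genes. The 8 astrocyte markers summed to between 591.4 and 609.1 against between 553.5 and 590.6 FPKM, so that the nearest libraries almost touched, and 2 of the 8 separated alone. Sums of neuronal, endothelial, choroid plexus, fibroblast, border macrophage, monocyte and neutrophil, and red cell markers overlapped. The part of oligodendrocytes and astrocytes in the values of Cd9 and Tgfbr1, which they also express, was not tested.

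**Figure D4:**
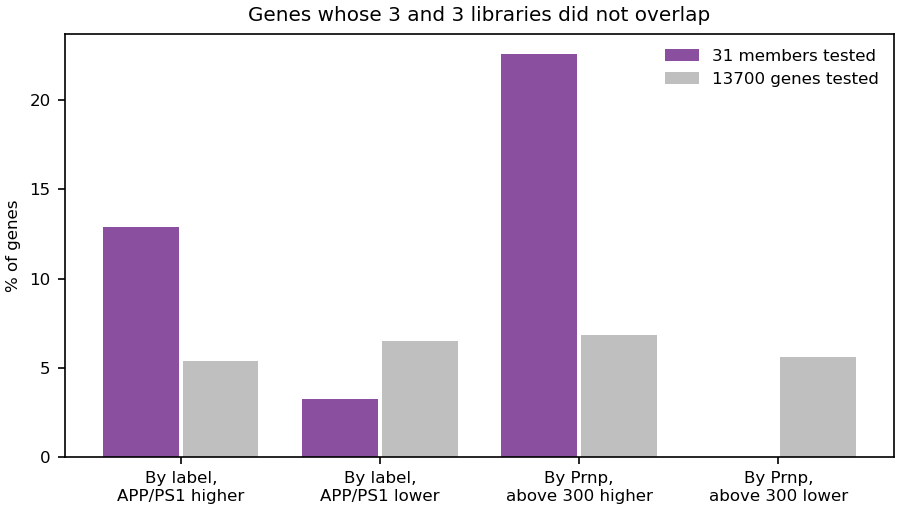
Share, in percent, of the 31 tested members (purple) and of all 13700 tested genes (grey) whose 3 and 3 libraries did not overlap, by label and by Prnp level, in each direction. The members reach 22.6% on the higher side by Prnp level, where all genes reach 6.83%, and 0 on the lower side.

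Further genes of the plaque response and of microglial signalling gave no calls. Of 24 other plaque-associated genes 18 had a row and 17 were tested, and 0 passed by limma (1 with an unadjusted p under 0.05). The 6 without a row included Gpnmb, a lysosomal glycoprotein, and the chemokine genes Ccl3 and Ccl4. Cst3, the abundant cystatin C gene, stood at 270.7, 289.9 and 285.9 against 263.2, 210.3 and 256.2 FPKM, without overlap (log2 fold change -0.22, adjusted p = 0.731). Ctsz, a lysosomal cathepsin, stood at 14.8, 13.9 and 14.6 against 15.8, 15.1 and 17.9 FPKM, also without overlap (log2 fold change 0.16, adjusted p = 0.765). With Ctsb, another cathepsin, 2 of the 17 lay higher throughout (11.8%, beside 5.38% of all genes) and 1 lower (5.88%, beside 6.51%). Of 23 ligands, partners and regulators of the members 20 had a row and 16 were tested, and 0 passed (0 with an unadjusted p under 0.05). Nrros, which microglia need to activate TGF-beta, had 1.36 ± 0.377 against 0.994 ± 0.170 FPKM (SD, n = 3; limma, adjusted p = 0.827). Cx3cl1, which encodes fractalkine, was the 1 of 16 that lay lower in all 3 libraries with high Prnp. It was listed at 14.7, 15.9 and 16.9 FPKM against 19.4, 20.8 and 17.3 FPKM. That share, 6.25%, is close to the 5.6% of all genes.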

How the data were processed

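Per the labels' protocols, RNA was taken from frozen hippocampus with Trizol and made into Illumina TruSeq libraries. The authors deposited 1 table per library, whose values were read as FPKM from their decimals and column totals, since no header names the unit. Per the submitters' processing notes, FastQC, HISAT2, StringTie and mm9 were used, with no versions. Whole reads could not be recovered from steps in the low values. The circRNA tables were not used here.

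Members were found by exact name, and repeated names were kept as separate rows. The 13700 rows that reached 1 FPKM in 3 or more libraries entered a fit of log2(FPKM + 1) on label alone. It used limma 3.58.1 in R 4.3.3 with its trend and robust options. P-values were Benjamini-Hochberg adjusted over all 13700 rows. A check of the fit on simulated data used changes larger than those of most members, so it does not cover smaller ones. An exact test of 3 against 3 libraries cannot go below 0.1, so none is given for single genes. No pair of libraries held identical values above 0 in any row. Members and lists were chosen with earlier results of these data known. All members may be named, and of the other lists up to 4 genes by smallest p and some without a row. Ctsb and Cx3cl1 were named after their values were seen.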

Additional observations from a re-analysis of the deposited data

How the results depend on the processing

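Across the alternatives run (a pseudocount of 0.1, no filter or 1 FPKM in all 6 libraries, median-ratio or quantile scaling, limma without trend, a replicate block, each library left out and the 4 libraries chosen after seeing the data), 0 members passed an adjusted p of 0.05. The count over all genes, 3, was 1 with the replicate block, from 2 to 30 with a library left out and 27 in the 4 libraries. The labels do not pair the replicates, and same-numbered libraries deviated together with correlations of 0.00983, -0.0561 and -0.0941, so the main fit used no pairing. Deviations were taken from the mean of each label, where they cancel out. This check therefore cannot exclude a preparation shared by equal numbers. With a library left out the homeostatic median ran from 0.0155 to 0.153 (0.17 in the 4 libraries). The members higher without overlap ran from 4 to 10 (14 in the 4) and those lower from 1 to 5 (2 in the 4). Those higher by Prnp level ran from 7 to 12. Counts without overlap can only stay or rise when libraries are left out, so their lower ends are no sign of stability. Of 9 members whose log2 fold changes were followed, Cx3cr1 ranged from -1.22 to 0.0605 with a library left out and changed sign, to 0.0420 when WT replicate 2 and to 0.0605 when APP/PS1 replicate 3 was dropped. The other 8 kept their sign. The depth of the FPKM values is unknown, and members near 1 FPKM, Trem2 included, are the least certain.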
